A study of Oncorhynchus mykiss with 8 samples.

Results

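The respiratory chain and citric acid cycle genes were taken by name from a liver microarray comparison of small and large rainbow trout. A probe was included where its name held cytochrome c oxidase, cytochrome b, NADH dehydrogenase, ATP synthase, ubiquinol, succinate, aconitate, malate dehydrogenase, citrate synthase, isocitrate, oxoglutarate or ADP/ATP translocase. This gave 20 of the 43603 probes, out of 1494 with any name. Of these, 17 were counted to the chain, the cycle or ADP and ATP exchange. They include malate dehydrogenase 1b, which is named as a relative of the cytosolic enzyme, and isocitrate dehydrogenase, whose name gives no compartment. The other 3 carried a matching word in the name of another pathway and are described apart. Names came from the gene tables of the study or the platform symbols, and 0 of the 20 came from a platform symbol. The liver tables named 7 of them (3 for the Sept. lot and 4 for the Dec. lot), and the tables of white muscle from the same fish named the other 13. Both kinds of table list only probes called in that tissue. For the 7, the lot of their table is therefore given as a description without a test, and the 13 were tested in the liver of both lots, except for 1 that lacks a Dec. array value.

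The fish were untreated juveniles of the Lyndon strain, reproductively immature and in the second year of life. They formed 2 lots, Sept. and Dec., named in the labels by hatching time, and each lot was the progeny of 1 male and 5 females, so that its families were paternal half-sibs. The parents differed between the lots. By the paper, the Sept. lot was sampled as winter solstice approached and the Dec. lot under lengthening days before spring equinox. Time of crossing or hatching, parents and sampling season therefore cannot be told apart in a difference between the lots. Small fish were compared with large fish of the same lot, in pools of liver mRNA from 5 fish, 1 per family. In each lot the largest fish were set against the second smallest and the second largest against the smallest, and each of these 2 pool pairs was hybridized on 2 arrays with the dyes Alexa Fluor 555 and Alexa Fluor 647 exchanged. A pool hides the spread between single fish, and a lot has 2 replicates.

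The citric acid cycle oxidizes acetyl groups in the mitochondrial matrix and hands the electrons to the respiratory chain as NADH or reduced ubiquinone. Complexes I, III and IV of the chain pass them to oxygen and pump protons across the inner membrane, ATP synthase uses the gradient to make ATP, and the ADP/ATP translocase carries ATP out in exchange for ADP. Most subunits are coded in the nucleus, whereas cytochrome b and several NADH dehydrogenase subunits are coded in mitochondrial DNA. In liver this machinery supplies the ATP for making glucose, lipids and plasma proteins.

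Expression is given as the log2 ratio of small over large fish, so that a value of 1 is a doubling in small fish. Neither the labels nor the methods state the direction of the ratios, which was read from the gene tables. A ratio holds no level, so neither the abundance of a transcript nor the labelled tissue could be checked. Less RNA per cell and fewer cells of a type cannot be told apart in whole liver. The arrays held values for 36754 to 41918 probes. Across all probes, the 2 arrays of the same pools with the dyes exchanged correlated at -0.14 to 0.06, whereas arrays of different pools with the same dyes correlated at 0.05 to 0.36. Hemoglobin and band 3 probes, which mark red blood cells, moved in opposite directions in the lots. Their median ratio was -0.42 in Sept., with 6 of 13 past the thresholds and lower in small fish, beside 0.858% of all probes, and 0.71 in Dec., with 10 of 13 past them and higher in small fish, beside 1.66%. Liver tables named 9 of the 13. Over the 4 others the median was -0.20 in Sept., with 1 past the thresholds, and 0.30 in Dec., with 2 past them. In Sept. 11 of the 13 were below 0 and in Dec. all 13 above it. The median of 24 hepatocyte marker probes was -0.06 in Sept. and -0.24 in Dec. That of 30 skeletal muscle marker probes was 0.00 over the 28 tested in Sept. and 0.04 over the 27 tested in Dec. Over the probes outside the liver tables it was -0.11 and -0.24 for hepatocyte markers, and -0.02 and 0.10 for muscle markers. The hepatocyte list was filled by words in names, complement among them. Its Dec. median was -0.47 in pool pair 1 and -0.07 in pool pair 2. With Alexa Fluor 647 on the small fish it was -0.36, and with Alexa Fluor 555 it was 0.09. In Sept. 0 of its 24 probes were past the thresholds, beside 2.02% of all probes. In Dec. 2 were, both lower in small fish, beside 2.15%. The part of red blood cells in the ratios that follow was not tested.

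In the Sept. lot isocitrate dehydrogenase, NADH dehydrogenase subunit 4L and a probe named NADH dehydrogenase had the highest ratios, between 0.39 and 0.63, and all 3 were below 0 in Dec. In the Dec. lot the highest ratios were those of mitochondrial aconitate, malate dehydrogenase 1b and cytochrome c oxidase subunit VIc, between 0.75 and 1.08. These 6 are liver table names, so their high rank in that lot was set by how they were named. The 13 probes named from muscle stayed between -0.20 and 0.14 in Sept., and the 12 of them tested in Dec. between -0.24 and 0.30. A probe was counted as called where limma gave an unadjusted p of no more than 0.05 and the fold change was 1.2 or more. In Sept. 1 of 20 was called, beside 2.02% of all probes, and in Dec. 3 of 19, beside 3.82% of all probes. By direction, 1 was higher and 0 lower in small Sept. fish, beside 1.16% and 0.858% of all probes, and 3 were higher and 0 lower in small Dec. fish, beside 1.66% and 2.15%. The 4 called are liver table names in the lot of their table. Of the probes named from muscle limma called 0 of 13 in Sept. and 0 of 12 in Dec. at that unadjusted p, and the methods' t-test on single arrays also called 0. With all 8 arrays in the fit and a dye term, oxoglutarate dehydrogenase was called in Dec. The block correlation there was 0.038, so that both arrays of a pool pair counted nearly as separate replicates. Arrays of 1 dye orientation alone, where dye and size are not separated, also gave calls of muscle names. With Alexa Fluor 647 on the small fish, the succinyltransferase of oxoglutarate dehydrogenase was called at 0.50 in Sept. and 0.52 in Dec. The share of all probes was 4.59% and 12.1%. With Alexa Fluor 555 in Dec., oxoglutarate dehydrogenase (0.55), cytochrome b- beta polypeptide (0.64) and the vacuolar ATP synthase (0.86) were called, beside 9.52%. The adjusted p of every tested member was 1.00 (limma, Benjamini-Hochberg over all probes of the lot).

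**Figure D1:**
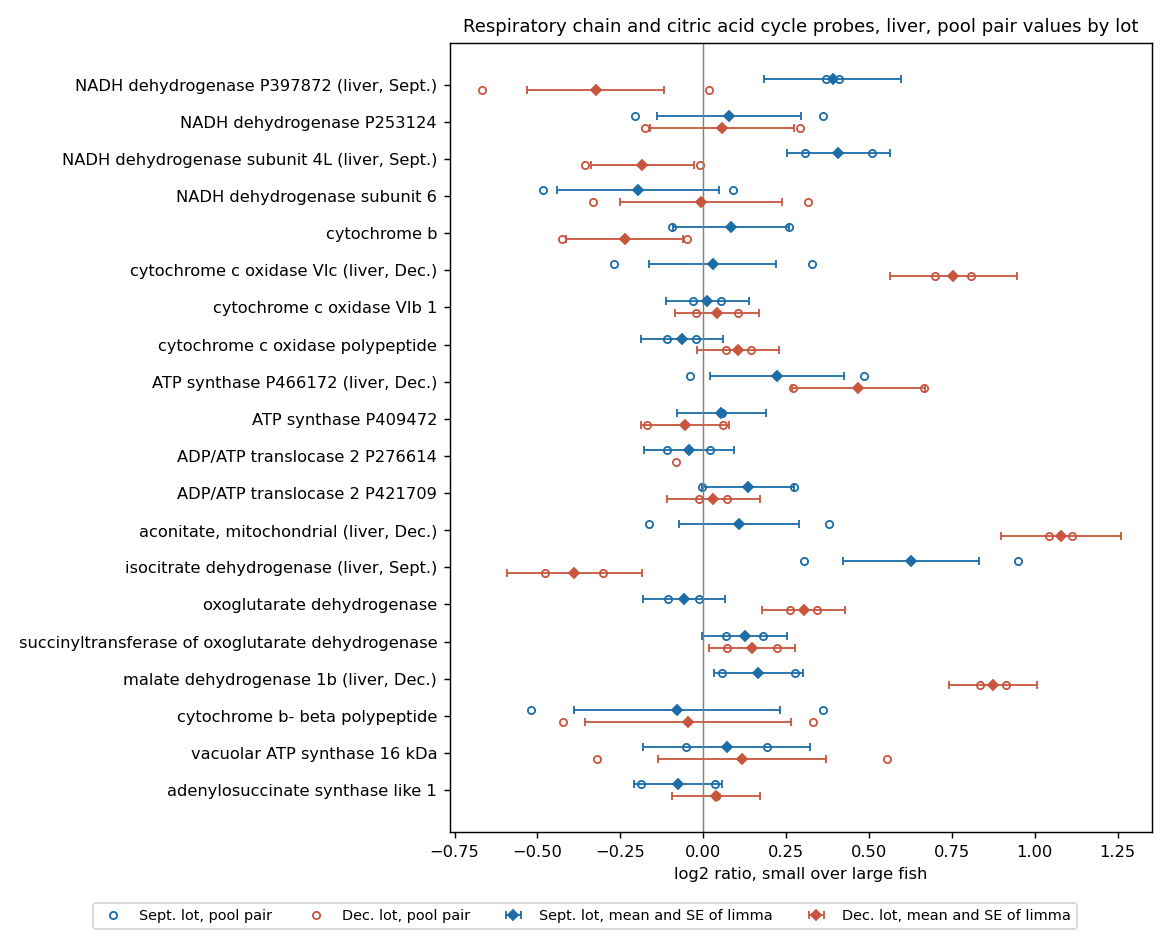
The x axis gives the log2 ratio of small over large fish for the 20 probes in rows, with open circles for the pool pairs and diamonds with bars for the mean and SE of limma, in blue for Sept. and red for Dec. Probes from the liver tables are marked with their lot, and they hold the ratios furthest from 0 in either lot. For ADP/ATP translocase 2 P276614 a Dec. array lacks a value, so only its complete Dec. pool pair is drawn.

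The median over the list was 0.07 in Sept. and 0.04 in Dec., beside 0.00 and 0.01 over all probes tested. For the probes named from muscle it was 0.01 and 0.04. In Sept. 14 of 20 ratios lay above 0, beside 19442 of 38679 over all probes tested. In Dec. it was 12 of 19, beside 17660 of 34014. Among the probes named from muscle 7 of 13 lay above 0 in Sept. and 8 of 12 in Dec. Among the liver table names it was 7 of 7 and 4 of 7, a count that the naming set in part. A ratio of the same sign on all 4 arrays was found for 2 of 20 in Sept. and 5 of 19 in Dec., or 10% and 26.3%, beside 9.76% and 8.20% of all probes tested. In Dec. 4 of those 5 were the liver table names of that lot, and the fifth was oxoglutarate dehydrogenase.

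Array values are given for pool pair 1 and then pool pair 2, each first with Alexa Fluor 647 and then with Alexa Fluor 555 on the small fish. Isocitrate dehydrogenase (A_05_P265984), which makes oxoglutarate from isocitrate, read 0.29, 1.61, 0.10 and 0.50 in Sept. and -1.13, 0.18, -0.45 and -0.16 in Dec. Its name does not tell whether the probe measures the mitochondrial enzyme of the cycle. Every Sept. array was above 0 and 3 of 4 Dec. arrays were below it, and the lots overlapped only through the lowest Sept. and the highest Dec. array. The mean was 0.63 (SE 0.20, 2 pool pairs) in Sept., a 1.54-fold higher level in small fish, and -0.39 (SE 0.20) in Dec. Pool pair 1 gave 0.95 and pool pair 2 gave 0.30 in Sept., and without pool pair 1 the ratio was 0.30 and not called. It was also not called when either Dec. pool pair was left out, with the ratio at 0.63.

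The probe named aconitate, mitochondrial-like (A_05_P379862), as in the name of the enzyme that turns citrate into isocitrate, read 1.35, 0.88, 1.51 and 0.58 in Dec. and 0.74, 0.01, 0.02 and -0.35 in Sept. All Dec. arrays were above 0, and only the highest Sept. array reached into their range. The Dec. mean was 1.08 (SE 0.18), a 2.11-fold higher level in small fish, with pool pairs at 1.11 and 1.04. In Sept., the lot that its table does not list, the mean was 0.11 (SE 0.18, 95% interval -0.39 to 0.60). It remained called in Dec. when any 1 pool pair was left out, a description in the lot that named it.

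Malate dehydrogenase 1b (A_05_P294817), named as a relative of the cytosolic malate dehydrogenase, read 0.24, 1.43, 0.29 and 1.54 in Dec. and 0.48, 0.08, 0.15 and -0.04 in Sept. Both Dec. arrays with Alexa Fluor 555 on the small fish were far above all other arrays, and the other 2 lay within the Sept. range. The pool pairs were alike in Dec., at 0.84 and 0.91, with a mean of 0.87 (SE 0.13) or 1.83-fold. The Sept. mean was 0.17 (SE 0.13, 95% interval -0.20 to 0.53).

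The oxoglutarate dehydrogenase complex, which makes succinyl-CoA, was represented by its first and second enzymes, both named from muscle. Oxoglutarate dehydrogenase (A_05_P306767) read 0.07, 0.61, 0.05 and 0.48 in Dec. and -0.18, 0.16, -0.05 and -0.16 in Sept. All Dec. arrays were above 0, yet those with Alexa Fluor 647 on the small fish were close to it and within the Sept. range. The Dec. mean of 0.30 (SE 0.12, 95% interval -0.04 to 0.64) was a 1.23-fold difference that was not called, and the Sept. mean was -0.06 (SE 0.12). The dihydrolipoyllysine succinyltransferase component (A_05_P407852) read 0.45, -0.32, 0.55 and -0.18 in Sept. and 0.68, -0.23, 0.37 and -0.22 in Dec. Its sign followed the dyes on all 8 arrays, and the means of 0.13 and 0.15 (SE 0.13) were not called.

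**Figure D2:**
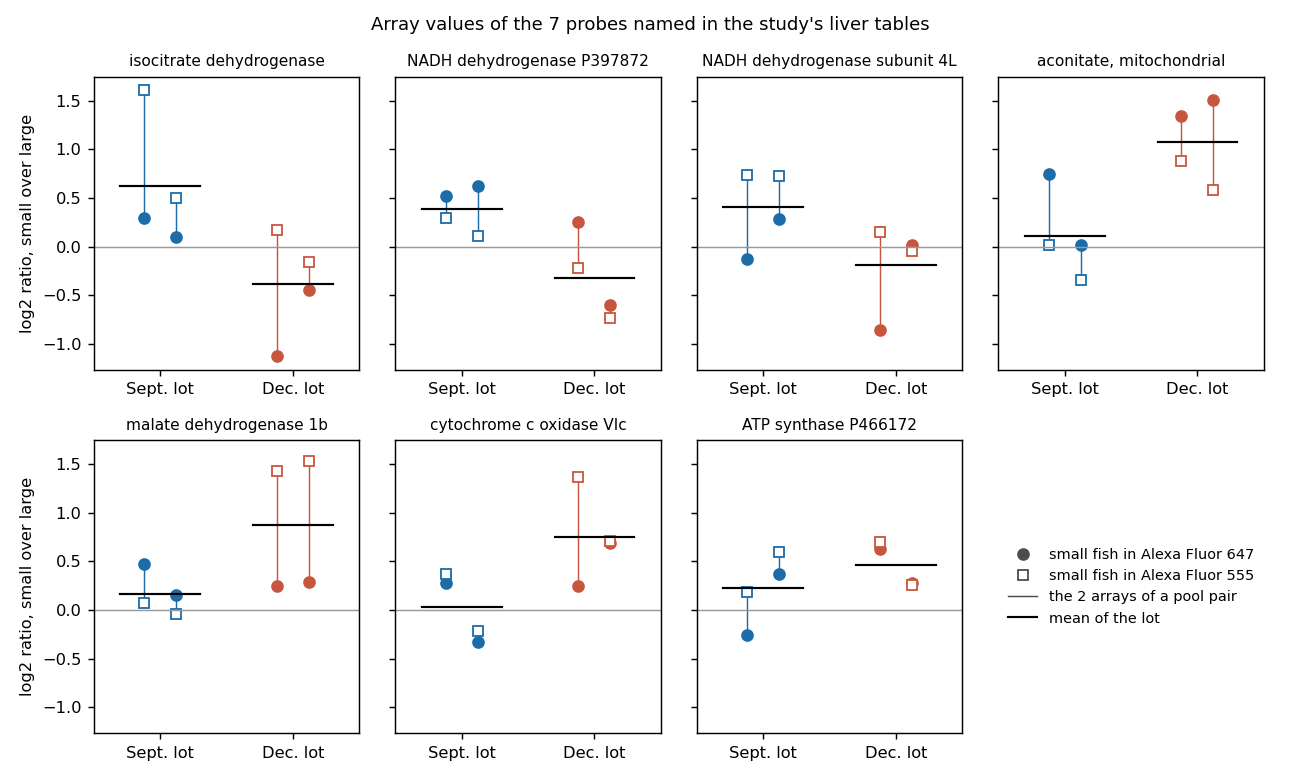
The y axis gives the log2 ratio of small over large fish on single arrays for the 7 probes named in the liver tables, Sept. in blue and Dec. in red, with filled circles for small fish in Alexa Fluor 647, open squares for small fish in Alexa Fluor 555, thin lines joining the 2 arrays of a pool pair and a black bar at the mean of the lot. The 4 Dec. arrays of aconitate, malate dehydrogenase 1b, cytochrome c oxidase VIc and ATP synthase P466172 are all above 0, and for no probe do the 4 Sept. arrays stand apart from the 4 Dec. arrays.

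Complex I, the NADH dehydrogenase that feeds electrons from NADH into the chain, was represented by 4 probes. The probe from the liver tables named NADH dehydrogenase (A_05_P397872) read 0.52, 0.30, 0.63 and 0.12 in Sept. and 0.26, -0.22, -0.60 and -0.73 in Dec. All Sept. arrays were above 0 and all but 1 of the Dec. arrays below it. The Sept. mean was 0.39 and the Dec. mean -0.32 (SE 0.21), neither past the threshold in the main limma fit. The other probe of this name (A_05_P253124), from the muscle tables, read -0.63, 0.22, 0.20 and 0.53 in Sept. and -0.26, 0.84, -0.38 and 0.02 in Dec. Its lots overlapped, and its means of 0.08 and 0.06 (SE 0.22) did not follow those of its namesake. Neither name tells which subunit the probe measures.

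The other 2 complex I probes measure subunits coded in mitochondrial DNA. Subunit 4L (A_05_P460457) read -0.12, 0.73, 0.29 and 0.73 in Sept. and -0.86, 0.15, 0.02 and -0.04 in Dec. Sept. arrays were mostly higher, and the lots overlapped. The means were 0.41 (SE 0.16) in Sept. and -0.18 (SE 0.16, 95% interval -0.61 to 0.24) in Dec. Subunit 6 (A_05_P453417) read -1.60, 0.63, -0.18 and 0.37 in Sept. and -0.74, 0.07, -0.02 and 0.65 in Dec. It was below 0 on all arrays with Alexa Fluor 647 on the small fish and above 0 on all others, with means of -0.20 and -0.01 (SE 0.24).

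Cytochrome b (A_05_P486612), the mitochondrially coded core of complex III, read 0.38, 0.14, -0.06 and -0.12 in Sept. and -0.30, -0.56, -0.19 and 0.10 in Dec. Its lots overlapped, and the means of 0.08 and -0.24 (SE 0.18) were not called. Across the 3 mitochondrially coded transcripts, pool pairs ranged from -0.48 to 0.51 in Sept. and from -0.43 to 0.32 in Dec. In either lot 0 of 3 were called, beside 2.02% of all probes in Sept. and 3.82% in Dec. Their ratios in Sept. differed in sign, with subunit 4L and cytochrome b above 0 and subunit 6 below it.

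Complex IV, cytochrome c oxidase, passes the electrons to oxygen, and its 3 probes carry names of subunits coded in the nucleus. Subunit VIc (A_05_P276699) read 0.25, 1.37, 0.69 and 0.71 in Dec. and 0.28, 0.37, -0.33 and -0.21 in Sept. The Dec. arrays were all above 0, and the Sept. pool pairs took opposite signs at 0.33 and -0.27. The Dec. mean was 0.75 (SE 0.19), or 1.69-fold, and the Sept. mean 0.03 (SE 0.19, 95% interval -0.50 to 0.55). In Dec. it was 0.70 without pool pair 1 and 0.81 without pool pair 2, and in neither case called. Subunit VIb isoform 1 (A_05_P406022) gave 0.01 in Sept. and 0.04 in Dec. (SE 0.13), with pool pairs between -0.03 and 0.11. The polypeptide named only as a mitochondrial precursor (A_05_P366972) gave -0.06 and 0.11 (SE 0.12). Its Sept. pool pairs read -0.02 and -0.11, and its Dec. pool pairs 0.14 and 0.07. Neither of these probes was called in either lot.

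ATP synthase, which makes ATP from the proton gradient, had 2 probes whose names do not give the subunit. The probe from the liver tables (A_05_P466172) read 0.63, 0.70, 0.28 and 0.26 in Dec. and -0.26, 0.18, 0.37 and 0.60 in Sept. All Dec. arrays were above 0, those of pool pair 1 above every Sept. array and those of pool pair 2 within the Sept. range. The means were 0.47 in Dec. and 0.22 in Sept. (SE 0.20), neither past the threshold in the main limma fit. The probe from the muscle tables (A_05_P409472) gave 0.06 in Sept. and -0.06 in Dec. (SE 0.13), with pool pairs at 0.05 and 0.06 in Sept. and 0.06 and -0.17 in Dec.

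ADP/ATP translocase 2, the carrier of the inner membrane, also had 2 probes, both from the muscle tables. One (A_05_P421709) gave 0.14 in Sept. and 0.03 in Dec. (SE 0.14), with Sept. arrays at -0.20, 0.20, 0.28 and 0.27 and Dec. pool pairs at -0.01 and 0.07. The other (A_05_P276614) gave -0.04 in Sept. (SE 0.14), with pool pairs at 0.02 and -0.11. In Dec. it read 0.43, -0.60 and 0.14 on the 3 arrays with a value, and it was not tested there or between the lots. It was above 0 on each array with Alexa Fluor 647 on the small fish and below 0 on each of the others.

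The 3 probes named for another pathway were not called in either lot. Cytochrome b- beta polypeptide (A_05_P255974), as in the name of the phagocyte NADPH oxidase, gave -0.08 in Sept. and -0.05 in Dec. (SE 0.31), with Sept. pool pairs at -0.52 and 0.36 and Dec. pool pairs at -0.42 and 0.33. The vacuolar ATP synthase 16 kDa subunit (A_05_P413453), part of the proton pump that acidifies vesicles, gave 0.07 and 0.12 (SE 0.25). Its Sept. pool pairs read -0.05 and 0.19, and its Dec. pool pairs -0.32 and 0.55. Adenylosuccinate synthase like 1 (A_05_P265444), of purine nucleotide synthesis, gave -0.08 and 0.04 (SE 0.13), with Sept. pool pairs at -0.19 and 0.04 and both Dec. pool pairs at 0.04.

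The Sept. and Dec. ratios were then compared within the same fit, on the 19 probes with values on all 8 arrays. Of the 12 named from muscle, 0 differed between the lots at an unadjusted p of 0.05 in limma, beside 2.11% of all probes. Their differences, Sept. minus Dec., ran from -0.36 for oxoglutarate dehydrogenase (SE 0.18, 95% interval -0.84 to 0.12) to 0.32 for cytochrome b (SE 0.25, 95% interval -0.36 to 1.00). The intervals leave room for a difference of either sign. Among the liver table names, whose differences are a description, 3 passed an unadjusted p of 0.05, at 1.02 for isocitrate dehydrogenase (SE 0.29), -0.97 for aconitate (SE 0.26) and -0.71 for malate dehydrogenase 1b (SE 0.19). Cytochrome c oxidase VIc stood at -0.73 (SE 0.27), NADH dehydrogenase A_05_P397872 at 0.71 (SE 0.29), subunit 4L at 0.59 (SE 0.22) and ATP synthase A_05_P466172 at -0.25 (SE 0.29).

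In the lot that its table does not list, 0 of the 7 liver table names was called in the main limma fit at an unadjusted p of 0.05, a count that the naming fixed in part. On Alexa Fluor 647 alone, isocitrate dehydrogenase was called in Dec. at -0.79, beside 12.1% of all probes. Without Dec. pool pair 1, NADH dehydrogenase A_05_P397872 moved further from 0 in Dec. It stood at -0.67, against -0.32 in the main fit, with only Dec. pool pair 2 left. The 3 Sept. names were all below 0 in Dec., between -0.39 and -0.18, and the 4 Dec. names all above 0 in Sept., between 0.03 and 0.22. The lot difference of isocitrate dehydrogenase no longer passed the threshold without Sept. pool pair 1 or either Dec. pool pair, at 0.69 to 1.10. That of aconitate did not pass without Sept. pool pair 2 or either Dec. pool pair, at -1.01 to -0.70, and that of malate dehydrogenase 1b without either Sept. pool pair or Dec. pool pair 2, at -0.82 to -0.60. The pool pairs of Sept. and Dec. did not overlap for 3 of 12 muscle names, beside 28.9% of all probes. The single arrays of the lots did not overlap for 0 of 12, beside 1.87% of all probes.

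**Figure D3:**
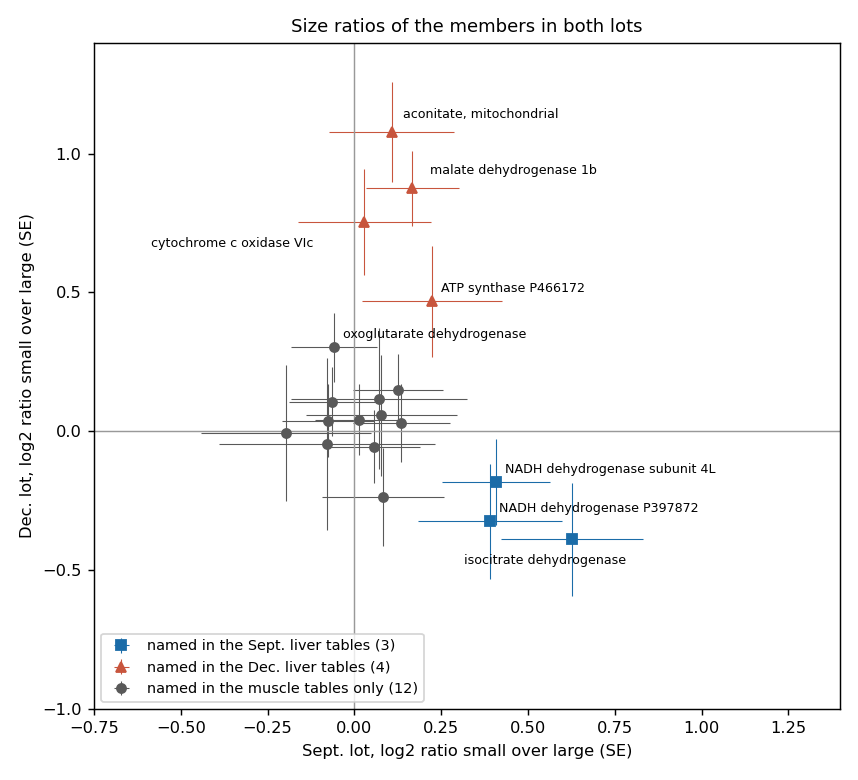
The x axis gives the log2 ratio of small over large fish in Sept. and the y axis that in Dec. for the 19 probes with 8 values, with bars for the SE of limma and symbols for the table that named them. Sept. liver table names lie to the lower right and Dec. names at the top, whereas the 12 muscle names lie between -0.20 and 0.14 in Sept. and between -0.24 and 0.30 in Dec.

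The 4 arrays with Alexa Fluor 647 on the small fish did not overlap the 4 with Alexa Fluor 555 on them for 5 of 19, beside 16.8% of all probes. These were NADH dehydrogenase subunit 6, ATP synthase A_05_P409472, cytochrome b- beta polypeptide and the vacuolar ATP synthase, all lower with Alexa Fluor 647 on the small fish, and the succinyltransferase of oxoglutarate dehydrogenase, higher with it. All 5 are muscle table names, a split that the naming set in part, because the liver table names were called on these same arrays. The mean with Alexa Fluor 647 on the small fish minus that with Alexa Fluor 555 ran from -1.25 for cytochrome b- beta polypeptide to 0.75 for the succinyltransferase, with a median size of 0.46 beside 0.29 over all probes. In size it exceeded the mean ratio over all 8 arrays of both lots in 15 of 19, or 78.9%, beside 82.9% of all probes. Ratios of opposite sign in the lots cancel in that mean. The sign of the gap was negative in 12 of 19, or 63.2%, beside 43.0% of all probes.

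The list median read differently on either set of arrays. With Alexa Fluor 647 on the small fish it was 0.02 in Sept. and -0.15 in Dec., and with Alexa Fluor 555 it was 0.16 and 0.36, over the probes tested in each lot. The widest gaps among the called were those of malate dehydrogenase 1b in Dec., at 0.27 with Alexa Fluor 647 and 1.48 with Alexa Fluor 555, and isocitrate dehydrogenase in Sept., at 0.20 and 1.06. Aconitate in Dec. read 1.43 and 0.73 and cytochrome c oxidase VIc 0.47 and 1.04. Each stayed above 0 in either orientation, but on the Alexa Fluor 647 arrays alone aconitate was the only one of these 4 that was called.

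**Figure D4:**
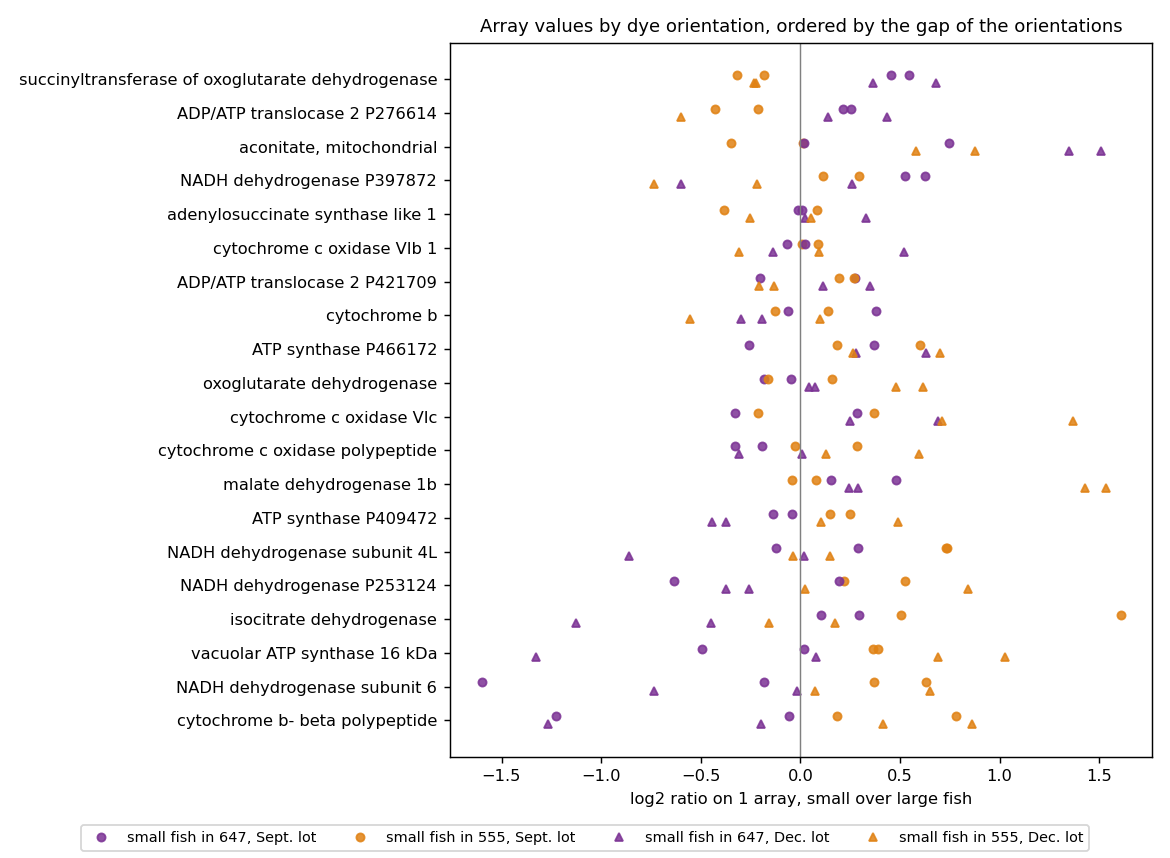
The x axis gives the log2 ratio of small over large fish on single arrays for the 20 probes in rows, ordered by the gap between the dye orientations, in purple for small fish in Alexa Fluor 647 and orange for small fish in Alexa Fluor 555, with circles for Sept. and triangles for Dec. Purple and orange do not overlap for NADH dehydrogenase subunit 6, the vacuolar ATP synthase, cytochrome b- beta polypeptide, ATP synthase P409472, the succinyltransferase and, over 7 arrays, ADP/ATP translocase 2 P276614.

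Other mitochondrial genes were counted in 3 lists filled by name. Among 13 other respiration genes 2 were called in Sept., both higher in small fish, beside 1.16% of all probes, and 0 in Dec., beside 3.82% in either direction. Among the 10 outside the liver tables, 1 was called in Sept. and 0 in Dec. One of the 2 was upf0551 protein c8orf38 (A_05_P407372), whose human counterpart is an assembly factor of complex I, at 0.39 (SE 0.13) in Sept. with 4 of 4 arrays above 0, and at 0.06 in Dec. It is a Sept. liver table name. The other (A_05_P420122) was a voltage-dependent anion channel 2, a pore of the outer membrane named from muscle, at 0.49 (SE 0.18) with 3 of 4 arrays above 0, and it is given here because of its call. A further pair of probes of that name gave 0.02 (SE 0.13) and 0.31 (SE 0.16) in Sept. The electron carrier cytochrome c had 2 probes, at 0.41 (SE 0.20) for the Sept. liver table name and 0.09 (SE 0.13) for the muscle name in Sept., and at 0.31 and 0.20 in Dec. The median of the list was 0.08 in Sept. and 0.13 in Dec.

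Of 17 probes for the mitochondrial ribosome, protein import and chaperones, 2 were called in Sept. and lower in small fish, beside 0.858% of all probes, and 2 in Dec. and higher, beside 1.66%. The Sept. pair were a 39s ribosomal protein (A_05_P472317) at -0.93 (SE 0.29) and a mitochondrial translation initiation factor (A_05_P300912) at -0.52 (SE 0.17), with 0 of 4 arrays above 0. The Dec. pair were another 39s ribosomal protein (A_05_P334607) at 0.76 (SE 0.15) and mitochondrial ribosomal protein s16 (A_05_P443957) at 0.52 (SE 0.13), with 4 of 4 arrays above 0. All 4 are liver table names in that lot. Among the 12 outside the liver tables, such as the import pore tom40 and the 60 kDa heat shock protein, 0 were called in either lot.

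Among 15 further mitochondrial names, 1 was called higher and 3 lower in small Sept. fish, beside 1.16% and 0.858% of all probes, and 1 higher and 1 lower in small Dec. fish, beside 1.66% and 2.15%. All of them are liver table names, and limma called 0 of the 8 outside the liver tables in either lot. The 3 were hydroxymethylglutaryl- mitochondrial-like (A_05_P404207) at -0.89 (SE 0.22), the acyl-CoA enzyme named very long-chain specific acyl- (A_05_P439167) at -0.49 (SE 0.15) and sarcosine mitochondrial (A_05_P266337) at -0.69 (SE 0.13), each with 0 of 4 arrays above 0. The last, a Sept. liver table name, was also called in Dec. at -0.58 (SE 0.13), with 1 of 4 arrays above 0, and so was called in the lot that its table does not list. The other 2 gave -0.13 and -0.32 in Dec. and were not called. In small Dec. fish the ES1 protein homolog (A_05_P425787) was higher at 0.74 (SE 0.21), and in small Sept. fish the C2orf47 homolog (A_05_P418477) at 0.57 (SE 0.18) with 3 of 4 arrays above 0, the latter also given because of its call.

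**Figure D5:**
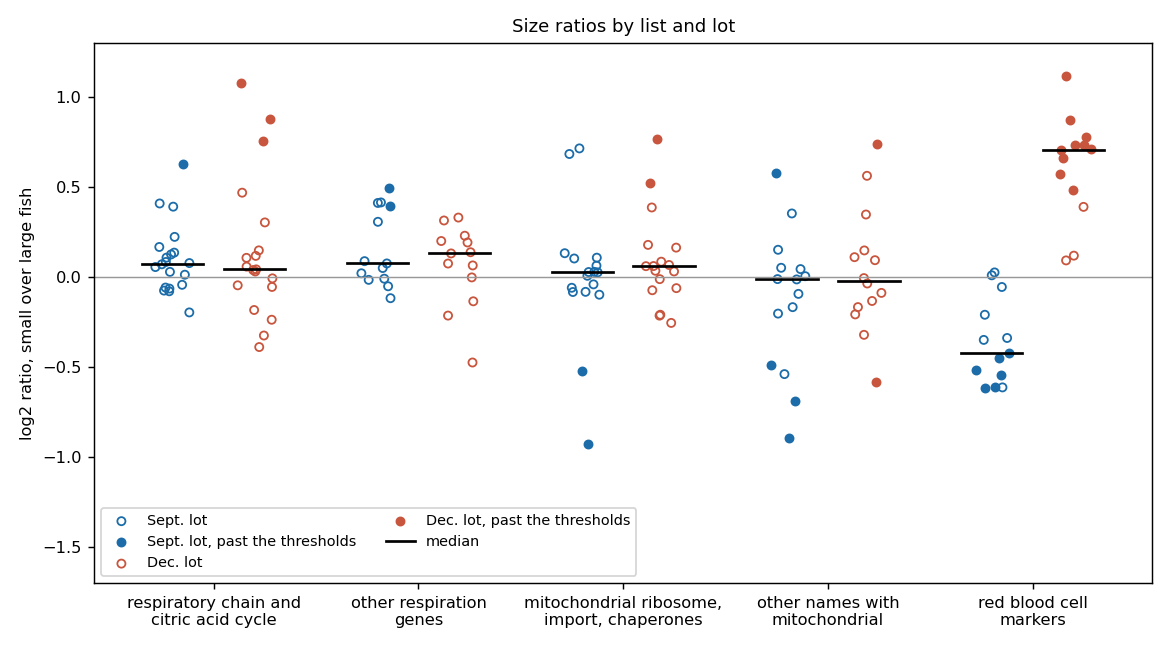
The y axis gives the log2 ratio of small over large fish for the tested probes of 5 lists, Sept. in blue and Dec. in red, with filled points for probes past the thresholds and black bars for medians. The medians of the mitochondrial lists lie between -0.02 and 0.13, whereas those of the red blood cell markers are -0.42 in Sept. and 0.71 in Dec.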

How the data were processed

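Liver RNA was extracted with TRIzol, and mRNA of 5 fish was pooled in equal amounts, labelled as cDNA and hybridized to two-color Agilent 44 K salmonid arrays. By the paper, the array sequences came from Atlantic salmon, so trout cDNA was hybridized across species. Whether each probe measures the trout gene of its name was not tested. The authors read the spots with GenePix Pro, took out bad spots by hand and points of weak signal, and applied lowess normalization in GeneSpring. What they deposited are log2 ratios, used unchanged, without 60 control spots and with 3.86% to 15.7% of cells empty per array. Channel signals were not analysed here. The labels and methods do not state the direction of the ratios. They were read as small over large fish, since all 726 entries of the liver gene tables then lie on their listed side, against 327 with the Alexa Fluor 555 arrays of small fish turned. Those tables were made from these values, so this gives the side the study read as small and not whether dye-flipped arrays had been turned.

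Both arrays of a dye flip were averaged, and limma 3.58.1 (R 4.3.3) was fitted to the 4 pool pairs over all probes, with a mean per lot and a shared spread, which gives the SEs and 95% intervals. Tests used probes with values on all 4 arrays of the lot, or on all 8 for the lot difference. Code was tested on simulated data. Members and lists were chosen with earlier results of these data known. All members are named, and from the other lists probes called with 1 sign on all 4 arrays, with a few others, given for their call or shared name, chosen after their values were seen. There were 22 alternative settings, 2 of them chosen after seeing the data. Figures were drawn with Python 3.11.15 and matplotlib 3.10.9.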

Additional observations from a re-analysis of the deposited data

Results flagged for a closer look

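The lot differences of 3 members passed the threshold, beside 2.11% of all probes, and those of 0 of the 12 muscle table names. Sept. minus Dec., they were 1.02 for isocitrate dehydrogenase, -0.97 for aconitate, mitochondrial and -0.71 for malate dehydrogenase 1b, all named by the liver tables that list them for 1 lot, which sets these differences in part. Of the 39 sets of 4 arrays examined, 1 held an array far from the others, that of ADP/ATP translocase 2 P421709 in Sept. at -0.20, where the nearest of the other 3 was 0.20. Chance marks about 1 in 20 such sets.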

How the results depend on the processing

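With 2 pool pairs per lot, the counts of called members moved with the fit. In Sept., 1 member was called in the main fit, and 0 among members named outside the liver tables. The count was 3 with all 8 arrays, a dye term and a random block per pool pair, and 2 with each lot fitted alone. It was 2 on arrays of small fish in Alexa Fluor 555 only, and 3 with the sign of those arrays turned. It was 2 fitted on the tested probes alone, and 2 where both arrays of a pool pair had a value. Of all Sept. probes, 2.02% were called in the main fit, 2.73% with all 8 arrays and 3.16% with each lot alone. The share was 5.23% on Alexa Fluor 555 only, 7.45% with the sign turned, and 2.46% and 2.72% in the last 2 settings. In Dec., 3 were called in the main fit, and 0 outside the liver tables. Under the same settings the count was 5 with all 8 arrays, 6 on Alexa Fluor 555 alone and 5 with the sign turned. Of all Dec. probes, 3.82% were called in the main fit and 5.99% with all 8 arrays. The share was 9.52% on Alexa Fluor 555 alone and 17.3% with the sign turned. Muscle names were among those called on Alexa Fluor 555 alone in Dec. and with the sign turned in both lots. The block on the replicate number, which the lots share as a number only (their deviations correlated at 0.03), gave 1 and 3. In that fit 3.36% of all Sept. probes and 4.15% of all Dec. probes were called, against 2.02% and 3.82% in the main fit. The Sept. median of 0.074 became 0.018 on Alexa Fluor 647 alone, 0.16 on Alexa Fluor 555 alone and -0.076 with the sign turned, with 0.0094 to 0.074 leaving out a pool pair. The Dec. median of 0.042 became 0.014 with centred arrays, -0.045 on Alexa Fluor 647 alone (20 members tested), 0.36 on Alexa Fluor 555 alone and -0.24 with the sign turned, with 0.042 to 0.072 leaving out a pool pair.

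With the sign turned, isocitrate dehydrogenase in Sept. became -0.43, in Dec. cytochrome c oxidase VIc -0.29, malate dehydrogenase 1b -0.61 and the vacuolar ATP synthase 16 kDa -0.74, and the lot differences of isocitrate dehydrogenase -0.031 and malate dehydrogenase 1b 0.76. On Alexa Fluor 647 alone the lot difference of malate dehydrogenase 1b was 0.049, and on Alexa Fluor 555 alone the cytochrome b- beta polypeptide was 0.64 in Dec. The cause was not tested. Aconitate in Dec. was called under 19 of 20 alternatives, the exception being the turned sign, at 0.35. This member and those that follow are liver table names in the lot given. The alternatives refit the values that named them, so the counts are a description without a test. Malate dehydrogenase 1b was called in the same direction under 17 of 20. Its exceptions were the methods' t-test, Alexa Fluor 647 alone and the turned sign. Cytochrome c oxidase VIc was called under 16 of 20, with exceptions on Alexa Fluor 647 alone, the turned sign and without either Dec. pool pair. Isocitrate dehydrogenase in Sept. was called under 13 of 20. It was not called under the methods' t-test, with each lot fitted alone, on Alexa Fluor 647 alone or with the sign turned. Nor was it called without Sept. pool pair 1 or either Dec. pool pair. Other liver table names gained a call. The methods' t-test called NADH dehydrogenase A_05_P397872 in Sept., beside 1.68% of all probes, and ATP synthase A_05_P466172 in Dec., beside 2.08%. It counts both arrays of a pool pair as replicates. The fit of all 8 arrays with a dye term called the same probes, and subunit 4L in Sept. Calls over all probes ranged from 456 to 2883 in Sept. against 781 and from 586 to 5880 in Dec. against 1298, and from 421 to 2457 against 703 for the lot difference, with 0 at an adjusted p under 0.05.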
